A study of Mus musculus with 20 samples.

Results

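Ribosomes that carried the initiation factor eIF3 were compared with all ribosomes in mouse embryonic fibroblasts starved of amino acids. The comparison used 4 of the 20 libraries of the series, chosen by their titles. They were 2 eIF3-80S libraries (eIF3-associated 80S ribosomes) and 2 Ribo-seq libraries (all ribosomes) from starved control cells. Control cells were fibroblasts of strain C57BL/6J with neither the Ogt knockout nor Thiamet-G, and starvation lasted 2 h. The same 2 assays in fed control cells, with 2 libraries each, served for comparison. Single eIF3-80S libraries of Ogt knockout cells (24 h of 4-OHT at 0.5 µM, then 24 h in fresh medium, a step that only the knockout groups had; Ogt is the enzyme that adds O-GlcNAc) and of cells given 0.1 µM Thiamet-G for 16 h (an inhibitor of the enzyme that removes O-GlcNAc) are given beside the results with no replicate check. Nothing in the labels says whether replicates were separate cultures, and p-values therefore reflect only how far these libraries spread, which may be technical. Fed cells were kept in DMEM with serum, and starvation used DMEM with the serum that the labels abbreviate as DFBS.

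eIF3 is a large complex of many subunits that binds the small ribosomal subunit, helps to recruit the mRNA and takes part in the search for the start codon. It can stay on the ribosome after the subunits join and during the first steps of elongation, and retained eIF3 is known to favour reinitiation at a further reading frame of the same mRNA. A lack of amino acids activates the kinase GCN2, which phosphorylates eIF2 and lowers initiation on most mRNAs, while mRNAs with upstream reading frames such as that of Atf4 are read more. The series title places an O-GlcNAc switch on the subunit eIF3a in this setting, so the comparison asks on which coding regions eIF3-bound ribosomes were found more or less often than ribosomes in general.

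The files pair transcripts with no gene names, and 0 of the 15354 Ensembl identifiers occur in the reference table used here. Atf4, Eif3a, fibroblast markers and all pathway lists were therefore not analysed here, nor was the labelled cell type checked. Transcripts are described by identifier, coding length and level. Levels are RPKM (reads per kilobase of coding region, relative to the read total of the library). Comparing them between coding lengths takes footprints to spread evenly along the coding region, which was not checked. Whole reads and coding lengths could be recovered from the steps between RPKM values. The starved eIF3-80S libraries held 52148 reads in replicate 1 and 129252 in replicate 2, against 5846130 and 1505367 in the starved Ribo-seq libraries. The eIF3-80S files listed 1919 and 4864 transcripts, all with at least 5 reads, and the Ribo-seq files 10609 and 12130.

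All 4 files listed 1869 transcripts, which were 97.4% of those of eIF3-80S replicate 1 and 18.6% of the 10049 found in both Ribo-seq files. The shallowest library thus decided which transcripts could be compared. A median transcript of the 1869 had 9 and 27 reads in the eIF3-80S libraries and 1122 and 241 in the Ribo-seq libraries. A further 3015 transcripts of both Ribo-seq files were listed in 1 eIF3-80S file, and 5165 were listed in none. A transcript with few footprints entered the 1869 only if its eIF3-80S level was high, so low ratios of weakly read transcripts are missing from them.

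Over the 1869 transcripts the median difference between the assay means lay between the medians of the 2 replicate pairs. The median absolute difference in log2 level was 0.557 between the assay means, each over 2 libraries. Between single libraries it was 0.516 for the eIF3-80S replicates and 0.753 for the Ribo-seq replicates. Means of 2 libraries vary less than single libraries, so these medians do not show that the assays differed no more than replicates. Log2 levels correlated at 0.890 between the eIF3-80S replicates, at 0.870 between the Ribo-seq replicates and at 0.802 to 0.843 between libraries of different assays. These correlations are across transcripts, which are not independent replicates.

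A small set of transcripts stood far above this spread on eIF3-bound ribosomes. Of the 1869 transcripts, 17 were higher in eIF3-80S than in Ribo-seq, a background share of 0.91% (limma, adjusted p under 0.05). Their log2 fold changes were 3.27 to 9.83, which are at least 9.65-fold on the scale of log2(RPKM + 1). All 17 had both eIF3-80S libraries above both Ribo-seq libraries, against 396 of all 1869 (21.2%). The 17 were chosen by limma on these same 4 libraries, so this count is no separate support. Only 1 of the 17 had a Ribo-seq level that predicted at least 10 reads in each eIF3-80S library. The entry of most of them to the 1869 thus leaned on their high eIF3-80S level, and so did the shares given here. Limma's adjusted p ranged from 0.00033 to 0.035. They held 17.6% and 3.61% of all reads in the eIF3-80S libraries, against 0.144% and 0.161% in the Ribo-seq libraries. Limma called 0 transcripts lower, although 80 were lower and 119 higher with p below 0.05 before adjustment. On recovered reads, limma-voom called 0 in either direction, with 103 below 0.05 before adjustment.

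The number of calls depended on single Ribo-seq libraries. Without starved Ribo-seq replicate 1 limma called 151 higher and 55 lower, and without replicate 2 it called 77 higher and 34 lower. Each of these fits included all 17, and each takes the lone library to vary like the eIF3-80S pair. Without eIF3-80S replicate 1 there were 13 higher, 10 of them among the 17, and 4 lower, and without replicate 2 there were 15 higher, 13 of them among the 17, and 1 lower.

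**Figure D1:**
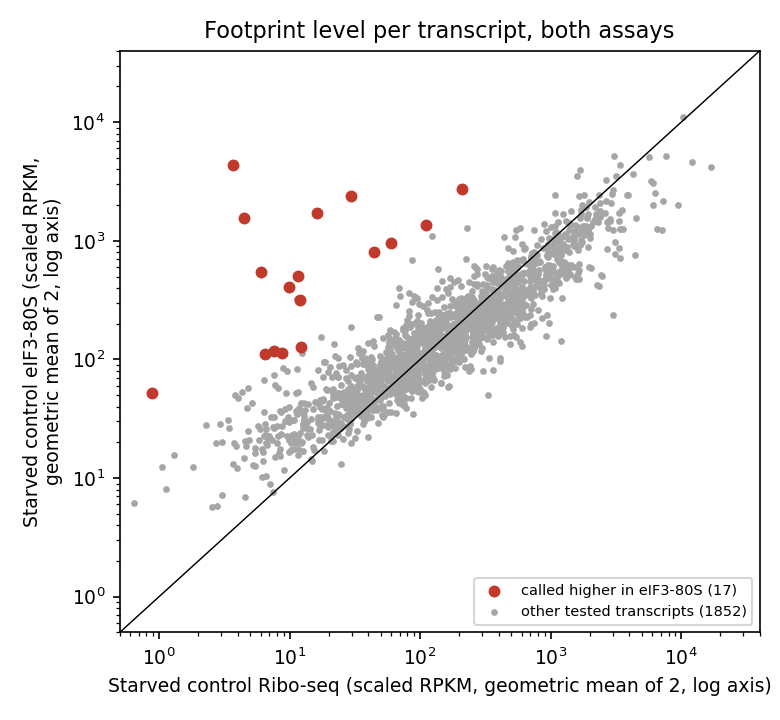
Each point is 1 of the 1869 transcripts listed in all 4 files, with its geometric mean level in 2 starved Ribo-seq libraries on the x axis and in 2 starved eIF3-80S libraries on the y axis (scaled RPKM, both axes logarithmic). The line marks equal levels, and the 17 red points, called higher in eIF3-80S, lie at 9.65-fold or more above Ribo-seq on the tested scale.

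The largest fold change was that of ENSMUST00000130864, whose coding region spans 4920 nt. It measured 23358 and 809 scaled RPKM in eIF3-80S replicates 1 and 2, from 6085 and 557 reads. In the Ribo-seq libraries it measured 2.38 and 5.74 scaled RPKM, from 74 and 38 reads. The assays did not overlap, although the eIF3-80S replicates differed 28.9-fold from each other. The log2 fold change was 9.83 (SE 1.24, limma adjusted p = 0.0050). This single transcript took 11.7% of the reads of eIF3-80S replicate 1 and 0.431% of those of replicate 2. In fed control cells it had 26479 and 1150 RPKM as deposited in eIF3-80S replicates 1 and 2, so the library numbered 1 was the high one in both conditions.

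ENSMUST00000027475, with a coding length of 3876 nt, was next. It had 1593 and 1514 scaled RPKM in eIF3-80S, from 327 and 821 reads, against 8.16 and 2.49 in Ribo-seq, from 200 and 13 reads. Here the eIF3-80S replicates lay within 1.05-fold of each other while the assays stood far apart. The log2 fold change was 8.10 (SE 0.62, limma adjusted p = 0.00033), the lowest adjusted p of all transcripts.

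The other 15 had coding lengths of 1062 nt to 15543 nt. Across the 17 the lowest, median and highest levels were 42.2, 1064 and 23358 scaled RPKM in eIF3-80S replicate 1 and 63.8, 526 and 2189 in replicate 2. In Ribo-seq they were 2.38, 12.8 and 133 in replicate 1 and 0.237, 9.46 and 350 in replicate 2. Their Ribo-seq level forms the denominator of the ratio that chose them, and nothing is read from it. The read support differed widely, from 7 to 6085 reads in eIF3-80S replicate 1 and from 1 to 1184 reads in Ribo-seq replicate 2. In 13 of the 17 the level was higher in eIF3-80S replicate 1 than in replicate 2, and the eIF3-80S replicates differed by 1.01-fold to 28.9-fold.

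**Figure D2:**
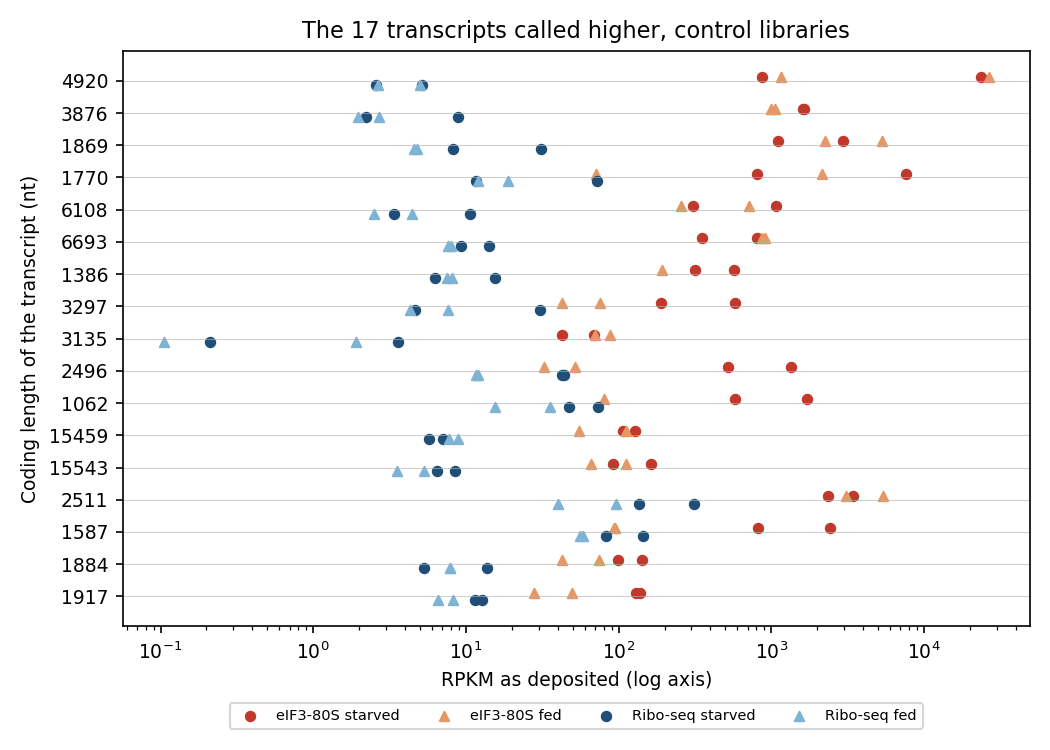
Deposited RPKM (logarithmic x axis) of the 17 transcripts called higher, ordered from the largest fold change at the top and labelled by coding length in nt. Circles are starved and triangles fed control libraries, with 2 libraries for each of eIF3-80S starved, eIF3-80S fed, Ribo-seq starved and Ribo-seq fed. Red and orange points lie right of the blue ones in most rows, and the rows of 2496, 1062 and 1587 nt have fed eIF3-80S values far below the starved ones.

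Libraries that took no part in choosing the 17 gave the same order for most of them. The fed and starved eIF3-80S libraries of one number resembled each other, however. The 16 of them listed in each fed eIF3-80S file took 17.5% of reads in replicate 1 and 3.32% in replicate 2, close to the starved shares of the same numbers. Of the 15 that all 4 fed control files listed, 13 were called higher in eIF3-80S than in Ribo-seq by limma, against a background of 4.71% higher and 4.27% lower among 3839 transcripts. All 15 had both fed eIF3-80S libraries above both fed Ribo-seq libraries, against a background of 31.8%. Their fed log2 fold changes ranged from 0.63 to 10.13 with a median of 4.54. The fed eIF3-80S files, too, listed transcripts only from 5 reads. A weakly read member could thus be listed there only if its fed eIF3-80S level was high. The count of 15 was partly set by this listing and is no separate support.

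In the single eIF3-80S library of starved Ogt knockout cells, 11 of the 17 were over 8-fold above the mean of 2 Ribo-seq libraries, against a background of 1.61% of 6273 transcripts. In starved Thiamet-G cells 10 of 14 listed members passed 8-fold, against 3.26% of 4360. Fed knockout cells had 9 of 17, against 2.05%, and fed Thiamet-G cells 10 of 17, against 3.14%. These eIF3-80S files also listed transcripts only from 5 reads. A weakly read member could thus have a ratio there only if its eIF3-80S level was high. The counts were partly set by this listing and are no separate support. The log2 ratio of ENSMUST00000130864 was 8.74 in starved knockout and 9.42 in starved Thiamet-G cells, and that of ENSMUST00000027475 was 8.03 and 8.63. High values of both transcripts were thus found in every group of cells, whether fed or starved.

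A few of the 17 had far higher RPKM on eIF3-bound ribosomes of starved control cells than in the other eIF3-80S libraries that listed them. They are singled out here after their values were seen. The transcript with a coding length of 1587 nt had 2441 and 819 RPKM as deposited in starved and 93.1 and 94.6 RPKM in fed eIF3-80S libraries. Its Ribo-seq levels were 144 and 82.5 RPKM starved and 58.3 and 56.1 RPKM fed. On eIF3-bound ribosomes of starved knockout cells it had 68.6 RPKM and on those of starved Thiamet-G cells 82.8 RPKM, below each starved control value. In fed knockout and fed Thiamet-G cells it had 106 and 103 RPKM there. The transcript of 2496 nt had 1337 and 524 RPKM in starved and 32.3 and 52.1 RPKM in fed eIF3-80S libraries, against 50.6 RPKM in starved knockout and 46.8 RPKM in starved Thiamet-G cells. Its log2 ratio over Ribo-seq was above 0 in the other groups too. It was 1.72 in fed control, 2.39 in fed knockout, 1.69 in fed Thiamet-G, 0.80 in starved knockout and 1.01 in starved Thiamet-G cells, against 4.17 in starved control cells. The transcript of 1062 nt had 1715 and 583 RPKM in starved eIF3-80S libraries, was unlisted in fed replicate 1 and had 80.1 RPKM in fed replicate 2. It had 45.1 RPKM in starved knockout, 60.9 RPKM in fed knockout and 76.0 RPKM in fed Thiamet-G cells, and was unlisted in starved Thiamet-G cells.

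Whether the ratio between assays differed between starved and fed control cells was tested as an interaction in the 8 control libraries. Limma called 0 of the 1738 transcripts listed in all 8 files, and 117 passed the threshold of 0.05 before adjustment. By limma-voom 0 were called, and 52 passed it before adjustment. The members were chosen for a high ratio in the same starved libraries, which favours positive differences. Of the 15 members tested, 4 had an unadjusted p under 0.05, against 117 of all 1738. The starved ratio exceeded the fed one by 3.13 on the log2 scale for the transcript of 1587 nt (SE 0.80, limma unadjusted p = 0.0028, adjusted p = 0.694) and by 2.66 for that of 2496 nt (SE 0.76, unadjusted p = 0.0055, adjusted p = 0.694). The other 2 went the opposite way, with differences of -2.43 for the transcript of 1869 nt and -2.09 for that of 2511 nt. None of these differences passed the adjusted threshold. ENSMUST00000027475 had a difference of -0.03 (SE 0.73) and ENSMUST00000130864 one of -0.21 (SE 2.24).

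No transcript passed the threshold as lower on eIF3-bound ribosomes, and the largest decreases are given as values. Among transcripts with at least 10 reads in each library and assays that did not overlap, the 15 lowest had log2 fold changes of -2.52 to -1.56 and limma adjusted p of 0.150 to 0.471. Their median coding length was 360 nt, with a range of 270 to 1140 nt. ENSMUST00000102972, of 312 nt, had 1574 and 985 scaled RPKM in eIF3-80S from 26 and 43 reads, against 2232 and 23034 in Ribo-seq from 4406 and 9674 reads. Its Ribo-seq replicates differed 10.3-fold, and the log2 fold change of -2.52 had an SE of 0.99 (limma adjusted p = 0.440). ENSMUST00000008016, of 360 nt, had 682 and 258 scaled RPKM in eIF3-80S, from 13 reads in each library. Its Ribo-seq levels were 2631 and 2088 scaled RPKM, with a log2 fold change of -2.48 (SE 0.64, limma adjusted p = 0.167). The value of ENSMUST00000102972 rested on the Ribo-seq library used. It was -4.21 without starved Ribo-seq replicate 1 (limma adjusted p = 1.22e-08) and -0.86 without replicate 2 (adjusted p = 0.623). ENSMUST00000008016 was at -2.32 and -2.66 in these fits and was called lower in both (limma adjusted p = 0.0065 and 0.0010). Without eIF3-80S replicate 1 it was at -3.17 and without replicate 2 at -1.80, and it was called in neither (adjusted p = 0.075 and 0.887).

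Coding length ordered the ratios of the whole table. Among the 1869 transcripts the median log2 fold change of eIF3-80S over Ribo-seq was -0.48 for 323 coding regions of at most 600 nt and -0.22 for 734 of over 600 to 1500 nt. It was 0.21 for 515 of over 1500 to 3000 nt and 0.87 for 297 over 3000 nt, where the median of all was 0.02. Both eIF3-80S libraries gave this order, with medians of -0.46 and -0.43 for the shortest and 0.93 and 0.94 for the longest class. Set against Ribo-seq replicate 1 alone the medians of these classes were -0.08 and 0.53, and against replicate 2 alone -0.82 and 1.37. The longest class lay above the shortest with either library, and the size of the gap depended on the Ribo-seq library.

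Counts of transcripts whose assays did not overlap followed the same order. The eIF3-80S libraries lay above both Ribo-seq libraries for 51.2% of coding regions over 3000 nt and 8.05% of those of at most 600 nt, with a background of 21.2% of all tested. They lay below both for 2.69% and 38.7%, with a background of 21.1%. Transcripts with few footprints could be counted here only if their eIF3-80S level was high, which favours high counts among long and weakly read transcripts. The order of these counts is therefore no separate support, and how much of it comes with the listing was not tested. The split of non-overlapping transcripts into 396 higher and 394 lower depended on the scaling. With scale factors from transcripts chosen on Ribo-seq alone, described next, it was 829 higher and 113 lower, and the median log2 fold change was 0.64.

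The listing from 5 reads favours high eIF3-80S values among long and weakly read transcripts, so the classes were also compared among transcripts chosen without the eIF3-80S data. A transcript entered if its mean Ribo-seq level predicted at least 10 reads in each eIF3-80S library, which left 1044. Choosing on Ribo-seq favours values that are high in Ribo-seq. Of the 1044, 178 were unlisted in eIF3-80S replicate 1 and 13 in replicate 2, and these were set to 4 reads. The 12 listed in neither had 28.4 to 74.3 predicted reads in replicate 2, against at most 4 reads for an unlisted transcript. The median log2 ratio of the 1044 was -0.77 in replicate 1 and -0.39 in replicate 2 on the scale of the 1869. The zero of the scale thus differed between the sets of transcripts, and the parts of the listing and of the choice on Ribo-seq in this shift were not told apart.

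The order by length was present among the 1044 as well. In eIF3-80S replicates 1 and 2 the medians were -1.05 and -0.69 for 287 coding regions of at most 600 nt and -0.90 and -0.48 for 514 of over 600 to 1500 nt. They were -0.34 and 0.04 for 196 of over 1500 to 3000 nt and 0.11 and 0.44 for 47 over 3000 nt. Short coding regions were also the most heavily read, with a median Ribo-seq level of 850 RPKM against 17.7 RPKM in the longest class of the 1869. Within the band of 300 to 1000 RPKM the medians were -1.14 and -0.74 for 137 coding regions of at most 600 nt, -0.94 and -0.52 for 250 of over 600 to 1500 nt and -0.50 and -0.03 for 36 of over 1500 to 3000 nt. The order by length was thus also seen within this band. Entry needed a set number of predicted reads, so shorter coding regions entered only at higher Ribo-seq levels. In the band of 100 to 300 RPKM, 0 coding regions of at most 600 nt entered. The choice on Ribo-seq therefore differed by length within a band, and how much of the order comes with it was not tested. These class medians are descriptions with no test, since transcripts of 1 library are not replicates.

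**Figure D3:**
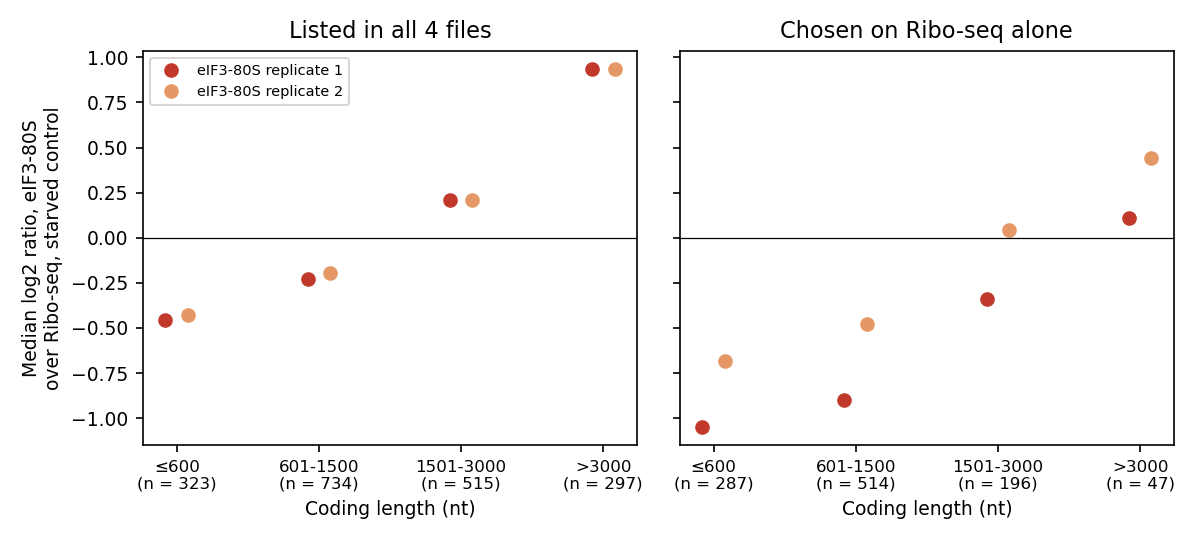
Median log2 ratio of eIF3-80S over Ribo-seq in starved control cells (y axis) by class of coding length (x axis, nt, with the number of transcripts), with 1 point per eIF3-80S library. The left panel shows the 1869 transcripts listed in all 4 files and the right panel the 1044 chosen on Ribo-seq alone. Medians are higher in longer classes in both panels, from -0.46 and -0.43 to 0.93 and 0.94 on the left.

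Level also ordered the ratios among the 1044 transcripts. The 33 transcripts over 3000 RPKM in Ribo-seq had medians of -1.12 and -1.39 in eIF3-80S replicates 1 and 2. The 169 of 1000 to 3000 RPKM had -0.92 and -0.52, the 423 of 300 to 1000 RPKM had -0.94 and -0.55, and the 69 under 100 RPKM had 0.09 and 0.48. The lowest ratios were thus those of the most heavily read coding regions, and the bands of 300 to 1000 and 1000 to 3000 RPKM were close to each other. The transcripts were chosen and classed by the same Ribo-seq level that forms the ratio's denominator, and how much of the order comes with that choice was not tested.

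The other groups of cells gave the same order of length classes, over transcripts listed in their own files. Their eIF3-80S files also listed from 5 reads, which favours high values among long and weakly read transcripts. The shared order is therefore no separate support, and transcripts chosen on Ribo-seq alone were examined in starved control cells only. The shortest class had medians of -0.58 in starved knockout, -0.97 in starved Thiamet-G, -0.43 in fed knockout, -0.90 in fed Thiamet-G and -1.15 in fed control cells. The longest class had 0.91, 1.07, 0.90, 0.98 and 0.96. Starved control cells were at -0.48 and 0.92 on this scale without a pseudocount, so their shortest class lay closer to 0 than that of fed control cells. The starved control medians cover 1869 transcripts and the fed control medians 3839, so the sets differ. The difference between these medians was not tested.

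The read totals showed the same contrast by length. Coding regions over 3000 nt took 30.2% and 18.0% of reads in starved eIF3-80S replicates 1 and 2, against 9.51% and 7.63% in starved Ribo-seq. The means were 24.1% ± 8.63 in eIF3-80S and 8.57% ± 1.33 in Ribo-seq (SD, n = 2 each). The eIF3-80S mean was 15.5 percentage points higher and the libraries did not overlap (two-sided exact permutation p = 0.333, the smallest that 2 against 2 allows). Shares are of reads on listed transcripts of known coding length. Reads outside these were 32.6% and 11.8% in starved eIF3-80S replicates 1 and 2, against 0.148% and 0.294% in starved Ribo-seq replicates 1 and 2. How these missing reads bear on the shares of either length class was not tested. Leaving out the 17 called transcripts lowered the difference to 6.06 points, and among the transcripts chosen on Ribo-seq it was 2.87 points, both alternatives chosen after seeing the data. Without the 10 most read transcripts of each library it was 6.83 points. It was 21.6 points without eIF3-80S replicate 2 and 9.40 points without replicate 1. In replicate 1 ENSMUST00000130864 alone took 11.7% of all reads of the library, and thus a larger share of its listed reads.

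Coding regions of at most 600 nt took 16.4% and 17.9% of reads in starved eIF3-80S, against 21.1% and 27.1% in starved Ribo-seq. The means were 17.1% ± 1.07 in eIF3-80S and 24.1% ± 4.24 in Ribo-seq (SD, n = 2 each). The difference was -7.02 points, and the libraries did not overlap (two-sided exact permutation p = 0.333). Leaving out the 17 lowered the difference to -3.79 points, and the libraries then overlapped (exact permutation p = 0.667). Without the 10 most read transcripts of each library it was -2.99 points, again with overlap (exact permutation p = 0.667). It was -10.0 points without starved Ribo-seq replicate 1 and -4.02 points without replicate 2. In fed control cells the shares were 19.1% ± 0.68 in eIF3-80S and 38.9% ± 6.20 in Ribo-seq, a difference of -19.9 points (exact permutation p = 0.333). The eIF3-80S shares of starved and fed control cells all lay within 16.4% to 19.5%, while the Ribo-seq shares were 21.1% and 27.1% starved and 43.3% and 34.6% fed. The assays also differed in the fragments cut from the gel, 20 to 70 nt for eIF3-80S and 25 to 35 nt for Ribo-seq, so fragment size and eIF3 association cannot be told apart.

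**Figure D4:**
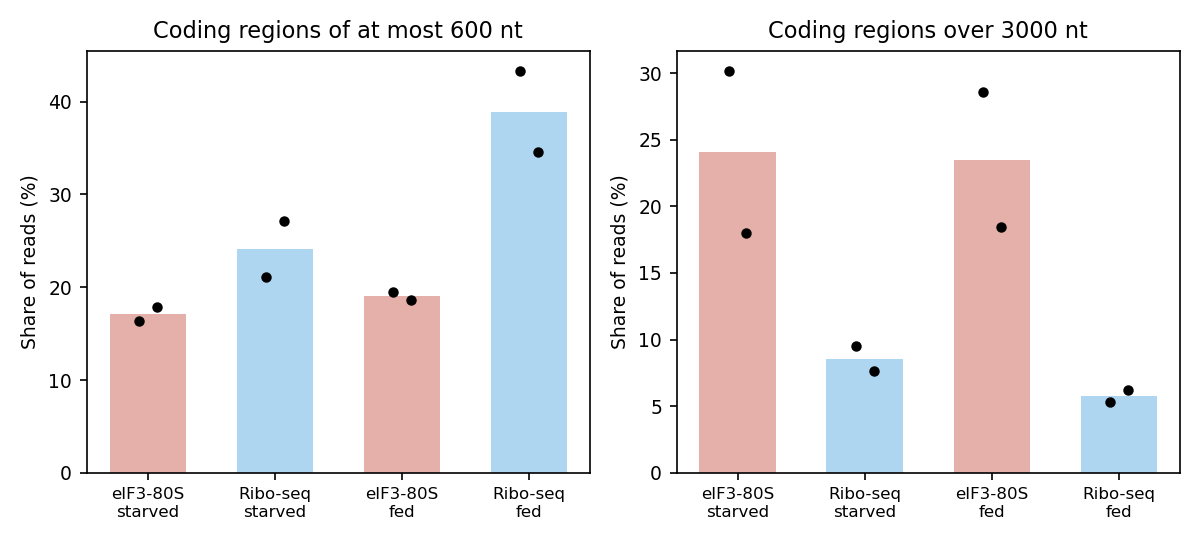
Share of reads (y axis, percent of reads on listed transcripts of known coding length) on coding regions of at most 600 nt (left) and over 3000 nt (right). Bars are means of 2 libraries and points single libraries of control cells. The starved eIF3-80S libraries lie at 16.4% and 17.9% on the left and 30.2% and 18.0% on the right, against 21.1% and 27.1% and 9.51% and 7.63% in starved Ribo-seq.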

How the data were processed

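The authors deposited 1 RPKM file per library, per the labels, with a transcript identifier and a value above 0. The tools cutadapt and STAR and the build GRCm38 appear in the submitters' processing notes. For the read counter, the annotation and the filter, the step is not given in the sources used here. Reads, library totals and coding lengths were recovered from the RPKM steps within a relative tolerance of 1e-09 for transcripts listed in at least 4 libraries, which gave 11616 lengths of 15354 transcripts, 99.9% of them multiples of 3. The recovery and the fits were tested on simulated data.

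Each library was divided by its median ratio against the geometric means of the transcripts in all 4 files. The two-sided test was limma's (version 3.58.1, R 4.3.3) on log2(RPKM + 1), fitted by lmFit with 2 residual degrees of freedom and moderated by eBayes with an intensity trend. The threshold was 0.05 after Benjamini-Hochberg adjustment. This scale understates fold changes of low transcripts. The interaction fit had 4 residual degrees of freedom. Over 8-fold in single libraries refers to log2 ratios without a pseudocount. Named transcripts were the 2 largest fold changes per direction with at least 10 reads in each of the 4 libraries, without overlap between assays. None was past the threshold as lower, so the 2 lower ones are given as values. Gene symbols could not be matched, so the rule's other parts and all gene lists were left out. Members, lists and tests were chosen with earlier results of these data known. The transcripts chosen on Ribo-seq and the shares without the 17 called transcripts were alternatives chosen after seeing the data. Alternatives covered the pseudocount, filters, scaling, trend, block, limma-voom, larger fits and single libraries left out.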

Additional observations from a re-analysis of the deposited data

How the results depend on the processing

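The 17 higher calls became 8 with RPKM as deposited, 4 after quantile normalization, 9 in a fit of the 8 control libraries and 0 by limma-voom on recovered reads, with 175, 137, 208 and 103 transcripts at an unadjusted p under 0.05. Tested on the 1044 transcripts chosen on Ribo-seq, of which 1 was among the 17, limma called 1. Leaving out 1 library gave 13 to 151 higher and 1 to 55 lower. Taking unlisted values as 0 gave 20 higher and 3281 lower of 10026, where the median log2 fold change was -2.66, since most transcripts were unlisted in eIF3-80S. A fit of all 20 libraries called 14 higher and 3 lower. The alternatives not named here or in the next paragraph gave 12 to 20 higher and 0 lower. The call of ENSMUST00000130864 ended under quantile normalization, limma-voom and the fit of 8 libraries (adjusted p = 0.072, 0.239 and 0.069), and that of ENSMUST00000027475 under limma-voom (adjusted p = 0.101). The cause was not tested.

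With the replicate number as a block limma called 11 higher, all among the 17, and 0 lower. Deviations of libraries of one number correlated at -0.080 between the assays, so the numbers were not taken to pair the assays. Between starved and fed libraries of one assay the correlation was 0.335 for eIF3-80S and 0.235 for Ribo-seq, so fed and starved libraries of one number may not be independent. The interaction gave 0 calls in each alternative except 2 lower without fed Ribo-seq replicate 1, and 0 with the block.

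The difference in the share of reads over 3000 nt was 6.83 points without the 10 most read transcripts of each library (-2.99 points for at most 600 nt, with overlap), 6.06 points without the 17 and 2.87 points among transcripts chosen on Ribo-seq. Leaving out 1 library gave 9.40 to 21.6 points for this class and -10.0 to -4.02 points for that of at most 600 nt. Depth limits the eIF3-80S side, where 32.6% of the read total of replicate 1 lay outside the listed transcripts of known coding length. Where these reads lay is not known.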
